A study of Mus musculus with 4 samples.

Results

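Translation initiation factors (eIFs) and elongation factors (eEFs) were examined in mesenchymal stromal cells (MSCs) of the adult mouse bone marrow. Members were the genes of the count table whose symbol begins with Eif and a digit from 1 to 6, or with Eef and the digit 1 or 2, with symbols containing bp or ak left out, so that the eIF4E-binding proteins and the kinases of eIF2 were not members. The rule found 77 of 56980 genes, 68 of them Eif and 9 Eef, and 75 of the 77 are annotated as protein-coding. The 4 libraries came from 4 male wild-type C57BL/6J mice aged 14 weeks, of a colony that the labels describe as inbred in-house, with no other allele or treatment named. For each mouse, 100 cells were sorted from bone marrow as CD45- Ter119- CD31- CD51+ PDGFRa+ Sca1-, a gate that leaves out leukocytes, erythroid cells and endothelial cells, and poly(A) RNA was turned into cDNA, amplified and sequenced. All 4 libraries form 1 group, so that no conditions were compared, and values of mice 1 to 4 are given in that order throughout.

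Initiation factors bring the small ribosomal subunit, loaded with the initiator tRNA carried by eIF2, to the cap of an mRNA and place it at a start codon, after which the large subunit joins. Elongation factors then deliver each aminoacyl-tRNA (the eEF1 group) and move the ribosome along by a codon (eEF2), while eIF5A, first described as an initiation factor, helps ribosomes through difficult peptide bonds. MSCs that mature towards osteoblasts secrete large amounts of collagen and other matrix proteins, and the phosphorylation of eIF2 is a known control point of their protein synthesis. Several mRNAs of this machinery, like those of ribosomal proteins, begin with a cytosine and a run of pyrimidines, a 5′ terminal oligopyrimidine tract through which mTOR controls their translation.

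The sequence around the annotated start was therefore read for members whose levels are described most closely: those of the 6 highest members that have a single start in the table of RefSeq promoters on GRCm38, and the members of the pairs Eif2s3x and Eif2s3y, and Eif4a1 and Eif4a2. Each line gives 15 bases before the start followed by 15 bases from it, 5′ to 3′ on the strand of the gene. Capitals mark a run of C followed by at least 4 bases that are C or T, matched from a C within 2 bases of the start. It was searched on this strand only. The base before the C was not checked, so that capitals can lie inside a longer stretch of pyrimidines, as for Eef1a1 and Eif2s3x. Eef1a1 (chr9:78481710-78481739, minus strand) and both genes of the eIF2 gamma subunit, Eif2s3x (chrX:94212637-94212666, minus strand) and Eif2s3y (chrY:1010580-1010609, plus strand), carried such a run.
Eef1a1: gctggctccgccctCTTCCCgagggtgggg
Eif2s3x: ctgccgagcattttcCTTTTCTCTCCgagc
Eif2s3y: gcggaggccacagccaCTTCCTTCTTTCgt
Eef2 (chr10:81176616-81176645, plus strand), Eef1b2 (chr1:63176816-63176845, plus strand), Eif1 (chr11:100319934-100319963, plus strand), Eif4a1 (chr11:69672409-69672438, minus strand) and Eif4a2 (chr16:23107453-23107482, plus strand) carried none in the same window.
Eef2: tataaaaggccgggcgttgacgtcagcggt
Eef1b2: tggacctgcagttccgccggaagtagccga
Eif1: gcgctggcgtcacaggggcggctatataag
Eif4a1: acaaagtaacgtcacgtcgagttgcagagc
Eif4a2: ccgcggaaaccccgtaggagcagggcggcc
An annotated start can differ from the start used in these cells, which was not measured. Neither the presence nor the absence of these letters in the window therefore shows how the mRNA itself begins.

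The libraries held between 22738604 and 43545349 counts on genes. The stromal genes Pdgfra, Itgav, Cxcl12 and Lepr exceeded 1 TPM (transcripts per 1000000, a count divided by gene length and scaled so that each library sums to 1000000) in all mice. The macrophage genes Adgre1, Csf1r and C1qa and the endothelial genes Cdh5 and Kdr had 0 counts in every library, while the fourth macrophage gene, Cd68, had 11, 0, 144 and 5 counts and so set the list's sum, at most 6.63 TPM. Ptprc, which encodes CD45, had at most 50 counts and Pecam1, which encodes CD31, at most 14. The libraries differed in markers of other cells and in depth. Erythroid markers, of which 4 of 6 exceeded 1 TPM in every mouse, summed to 4980, 35.04, 1708 and 358 TPM, Alas2 was at 0 in mice 2 and 4, and Ly6a, which encodes Sca1, had 1, 120, 0 and 144 counts. Osteoblast markers, all 4 above 1 TPM in every mouse, summed to 108982, 133635, 77792 and 168024 TPM, and the 10 highest genes held 34.1%, 38.9%, 31.4% and 42.7% of all TPM. Neutrophil markers summed to between 5.96 and 24.5 TPM and skeletal muscle markers to between 0 and 31.6 TPM, with the muscle genes Ckm and Tnnt3 and the neutrophil gene Ngp at 0 counts throughout.

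Of the 77 members, 58 had a median above 1 TPM over the 4 mice, where 44.2% of the 21922 protein-coding genes and 22.9% of all 52125 genes with a length did. Above 1 TPM in every mouse were 53 members, against 30.1% of protein-coding genes. The median level of the 58 expressed members was 46.3 TPM, compared with 9.86 TPM for expressed protein-coding genes, and 14 members exceeded 100 TPM, 33 lay between 10 and 100 TPM and 11 between 1 and 10 TPM. The 19 members at or below 1 TPM included 14 of the 17 numbered Eif1ad genes and the tissue-restricted forms Eef1a2, Eif5a2 and Eif4e1b, and 12 of the 19 had 0 counts in all libraries.

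**Figure D1:**
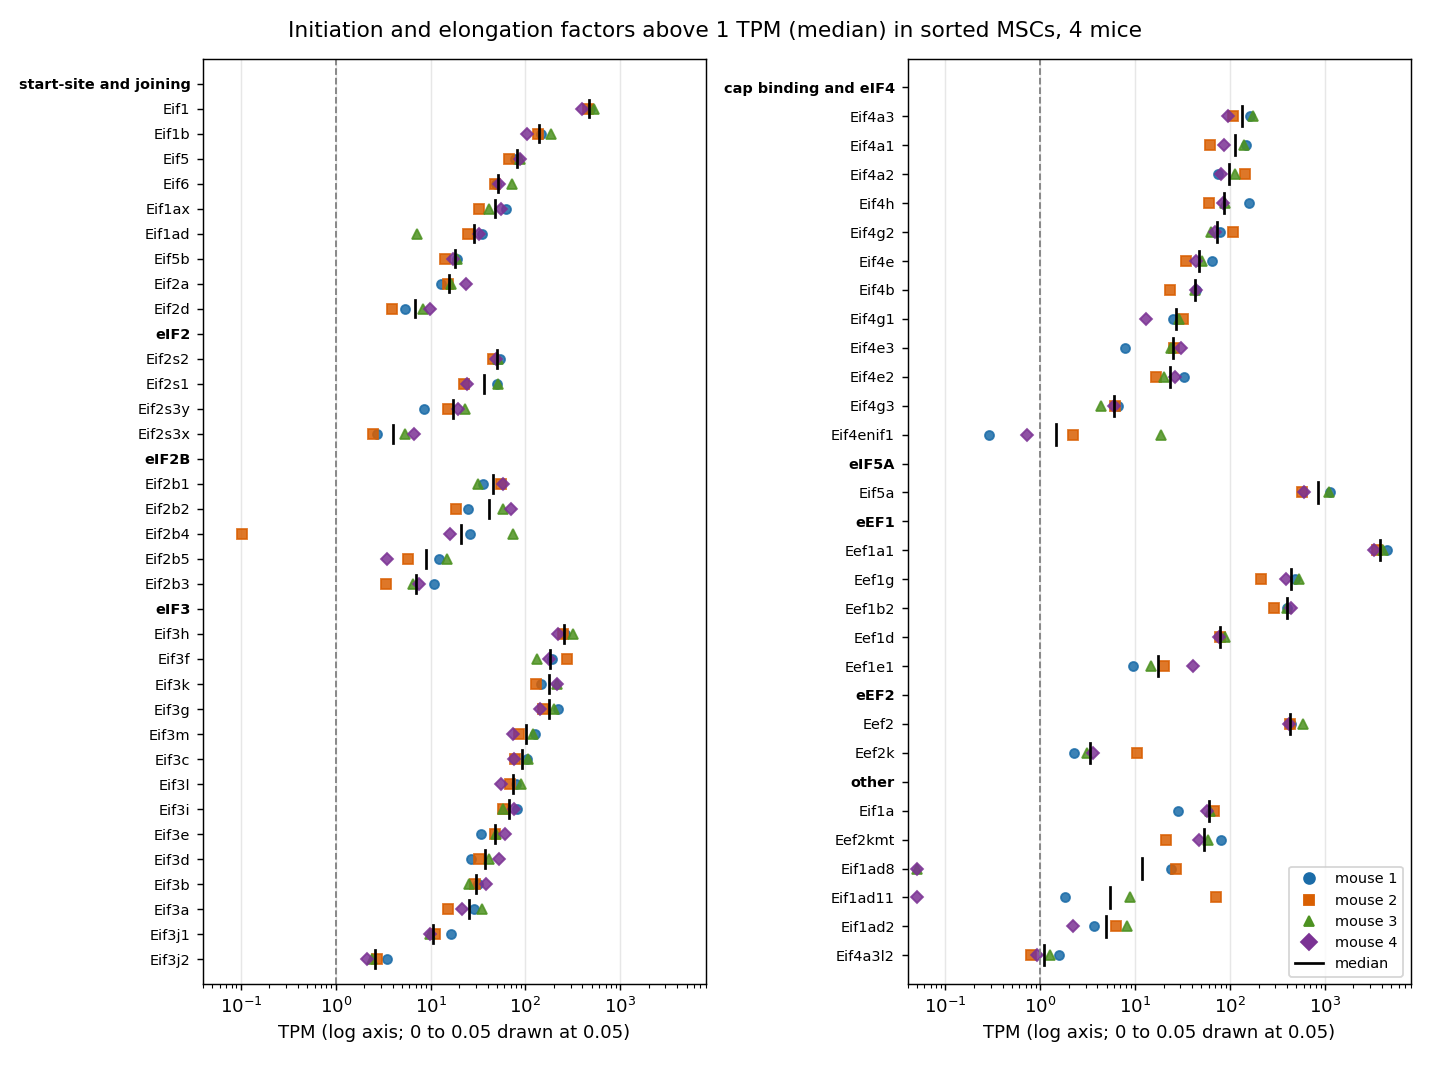
Level in TPM (horizontal log axis) of each of the 58 members with a median above 1 TPM, grouped by role, with a symbol for each of the 4 mice and a bar for the median. Points at 0 to 0.05 TPM are drawn at 0.05 and the dashed line marks 1 TPM. Eef1a1 lies highest at a median of 3830 TPM, and Eif2b4, Eif4enif1, Eif1ad8 and Eif1ad11 have mice far apart.

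Together the members took 10468, 8165, 10458 and 8224 TPM, or 9329 ± 1310 (mean ± SD, n = 4 mice, as for all values given in this way), which is 0.933 ± 0.131% of the TPM of a library and 1.14 ± 0.0946% of its counts. The sums of mice 1 and 3 did not overlap those of mice 2 and 4. Mice 1 and 3 also had the deeper libraries, the higher erythroid sums and the lower osteoblast sums. They had the smaller share of TPM in the 10 highest genes and the lower library numbers in the column headers. The osteoblast sums were mostly Bglap. Sp7, with 339, 158, 255 and 151 TPM, and Alpl, with 892, 550, 963 and 573 TPM, were instead higher in mice 1 and 3. Ibsp followed neither order. The part of all these in the difference was not tested. In libraries of 100 cells, more cells of a kind and more RNA per cell cannot be told apart. When the 10 highest genes and the mitochondrial genes were left out of the denominator, the sums were 16544, 14140, 15775 and 14993 TPM. The mean then was 15363 TPM, more than 1.5 times the first, and the coefficient of variation (CV, the SD as a percentage of the mean) between mice went from 14.0% to 6.72%. The 9 Eef genes held 56.6 ± 0.873% of the members' TPM, and Eef1a1 alone held 41.5 ± 1.86%.

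**Figure D2:**
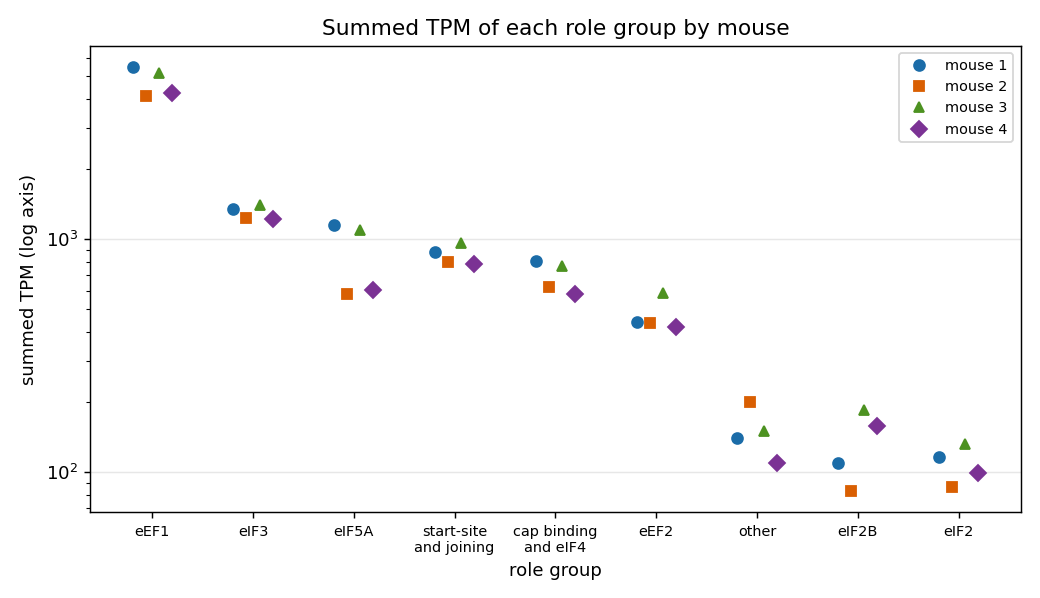
Summed TPM (vertical log axis) of the members of each role group in each of the 4 mice, one symbol per mouse. The eEF1 group lies highest with 4758 ± 670 TPM and eIF2 lowest with 107.95 ± 19.9 TPM, and in eIF5A mice 1 and 3 stand above mice 2 and 4.

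By role, eEF1 summed to 4758 ± 670 TPM and eIF3 to 1304 ± 88.3 TPM. The eIF5A genes followed with 858 ± 307 TPM, the factors of start-site selection and subunit joining with 854 ± 83.5 TPM, and the cap-binding and eIF4 group with 693 ± 110 TPM. The eEF2 group had 471 ± 77.1 TPM. The lowest sums were those of eIF2B, with 133 ± 45.8 TPM, and eIF2, with 107.95 ± 19.9 TPM. Neighbours in this order from eIF5A down to eEF2 overlapped in their ranges over mice, as did eIF2B and eIF2, whereas eEF1 and eIF3 each lay apart from the group below in every mouse. The eIF3 sum varied least between mice, with a CV of 6.77%, and the eIF5A sum varied most among these named roles, with 35.8%.

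The group of start-site selection and subunit joining was drawn up with 9 members, all above 1 TPM in every mouse. Eif1a, with 54.0 ± 17.8 TPM, was placed outside the named roles and is not in this group or its sum. Eif1 (chr11:100319885-100322096, GRCm38, as for all coordinates), which keeps the scanning ribosome from settling on wrong codons, had 475, 456, 525 and 397 TPM, or 463 ± 52.8. Its close relative Eif1b had 147, 135, 185 and 103 TPM (142 ± 33.6). All mice had Eif1 above Eif1b, and the ranges did not touch. The difference in log2(TPM + 1) within a mouse was 1.72 ± 0.18, and rose to 2.62 when the coding length was used in place of all exons. The other 7 members of the group had medians between 6.83 TPM for Eif2d, which can deliver tRNA without eIF2, and 82.2 TPM for Eif5, which makes eIF2 hydrolyse its GTP. Eif1ax, Eif6, Eif1ad, Eif5b and Eif2a lay between them. Other genes hold near-identical sequence for 49.8% of the longest Eif1 transcript. Antisense genes overlap 12.7% of the Eif1b exons, 15.3% of the Eif1ad exons and 16.8% of the Eif5b exons. Banf1, the gene opposite Eif1ad, had 7748, 3591, 7925 and 3829 counts, where Eif1ad had 1707, 763, 350 and 941. The stated counting options do not use strand, so that reads on both strands of an overlap cannot be told apart.

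The subunits of eIF2, which carries the initiator tRNA, were uneven in their transcripts. Eif2s2, the beta subunit, had 54.5, 45.4, 51.3 and 48.6 TPM, or 49.9 ± 3.86. This was among the steadiest levels of all members, with a CV of 7.72%. Eif2s1, the alpha subunit phosphorylated under stress, had 37.1 ± 15.9 TPM. The gamma subunit is encoded by a gene on each sex chromosome. The X-linked Eif2s3x had 2.73, 2.48, 5.34 and 6.63 TPM (4.29 ± 2.02). The Y-linked Eif2s3y had 8.63, 15.2, 23.0 and 19.3 TPM (16.6 ± 6.18) in these male mice. The Y copy was the higher one in each mouse, at 76.0%, 86.0%, 81.2% and 74.5% of the TPM of both genes. The log2 difference of Eif2s3x from Eif2s3y was -1.73 ± 0.41 and lay between -2.02 and -1.57 over the 8 alternatives of length, pseudocount and mice. A copy, Gm2223, is near-identical over 37.0% of the longest Eif2s3x transcript and itself had 1, 2, 3 and 17 counts. Counts of both gamma genes together gave 20.9 ± 7.81 TPM, still below the beta subunit in all mice.

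All 5 genes of eIF2B, the exchange factor that reloads eIF2 with GTP and is blocked by phosphorylated eIF2, had a median above 1 TPM, and 4 exceeded it in every mouse. By median Eif2b1 was the highest, with 35.9, 55.0, 31.8 and 58.7 TPM (45.4 ± 13.5). Eif2b3 was the lowest by median, with 10.85, 3.41, 6.61 and 7.60 TPM (7.12 ± 3.07). The medians of the highest and the lowest subunit differed 6.39-fold. The place of Eif2b3 depended on gene length. In counts it lay above Eif2b5 in every mouse, with 1245, 247, 745 and 512 against 557, 169, 667 and 93. The order in TPM was not the same in each mouse. Eif2b2 exceeded Eif2b1 in mice 3 and 4, and the lowest subunit was Eif2b4 in mouse 2 and Eif2b5 in mouse 4. Eif2b4, singled out after its values were seen, had 1179, 3, 3295 and 434 counts. Mouse 2 was thus at the 3 counts taken here as the smallest detectable number while mouse 3 had 73.4 TPM. On 7.85% of its exonic bases Eif2b4 overlaps Snx17 on the opposite strand.

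The 14 genes of eIF3, the large scaffold on the small ribosomal subunit, were all above 1 TPM in every mouse. Among the 12 subunits that are tightly bound, Eif3h was the highest by median, with 263, 249, 319 and 221 TPM (263 ± 41.3). Eif3a, the largest subunit and a core of the complex, was the lowest by median, with 29.0, 15.1, 34.7 and 21.2 TPM (25.01 ± 8.59). The medians of both differed 10.2-fold, and in TPM the lowest value of Eif3h exceeded the highest of Eif3a. These places depended on gene length. In counts Eif3b, with 1857, 1093, 1461 and 1327, lay below Eif3a, with 4460, 1467, 5228 and 1917, in every mouse. Eif3f had more counts than Eif3h in mice 1, 2 and 4. The order of the subunits was alike in the 4 mice, with Spearman correlations across the 12 genes between 0.902 and 0.951 for the 6 pairs of mice. These points share their gene lengths and are not independent replicates.

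**Figure D3:**
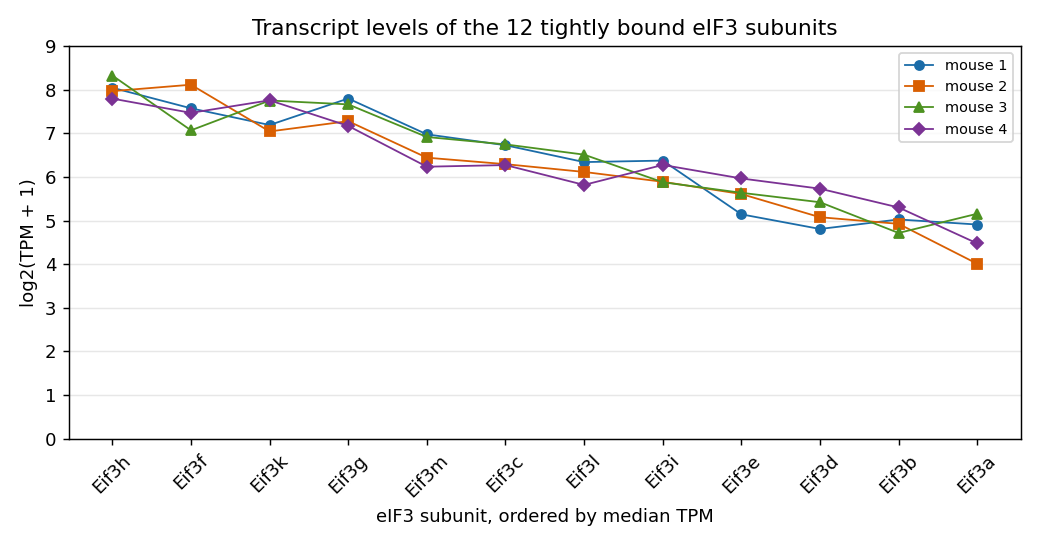
Level as log2(TPM + 1) (vertical axis) of 12 eIF3 subunits, ordered by median TPM along the horizontal axis, with one line per mouse. The lines of the 4 mice fall together from Eif3h, at 263 ± 41.3 TPM, to Eif3a, at 25.01 ± 8.59 TPM, and cross between close neighbours.

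In each mouse the SD over the 12 subunits was 1.18, 1.24, 1.13 and 1.02 in log2(TPM + 1), or 1.14 ± 0.09, whereas a subunit varied between mice with a median SD of 0.32 on the same scale. The spread depended on the length correction. Without division by gene length it fell to 0.70. Of the 11 steps between neighbours in the order, 5 were larger than the SD of the difference within mice: Eif3g over Eif3m, Eif3m over Eif3c, Eif3c over Eif3l, Eif3i over Eif3e and Eif3e over Eif3d. The steps between neighbours from Eif3h through Eif3f and Eif3k to Eif3g, from Eif3l to Eif3i, and from Eif3d through Eif3b to Eif3a were within it, and genes further apart in the order were not compared in this way. The antisense gene Gm17638 overlaps 43.3% of the Eif3d exons, and a copy of Eif3h, Gm6552, matches 81.5% of its longest transcript.

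Eif3j1 and Eif3j2, which encode the loosely attached subunit, were compared apart. Eif3j1 had 16.4, 11.1, 9.85 and 9.89 TPM (11.8 ± 3.09). Eif3j2 had 3.46, 2.76, 2.41 and 2.12 TPM (2.69 ± 0.581). Eif3j1 was higher in each mouse, by 1.78 ± 0.13 on the log2(TPM + 1) scale and by 3.04 when the coding length was used. The level of Eif3j2 is uncertain, since its whole longest transcript has a near-identical copy elsewhere (100%) and its 145, 73, 99 and 52 counts may include reads of Eif3j1, which had 1678, 720, 992 and 596.

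The cap-binding and eIF4 group had 12 of 13 members above a median of 1 TPM. Eif4a3, the helicase of the exon junction complex, led it with a median of 135 TPM, and 95.7% of its longest transcript is shared with copies. The initiation helicases Eif4a1 and Eif4a2 came next. Eif4a1 had 147, 61.2, 140 and 87.1 TPM (109 ± 41.6). Eif4a2 had 74.5, 144, 114 and 80.45 TPM (103 ± 32.4). Eif4a1 was the higher gene in mice 1, 3 and 4 and Eif4a2 in mouse 2. Their log2 difference was 0.04 ± 0.92, smaller than its spread, and its sign turned with the longest transcript (-0.48), the coding length (-0.25), no length (-0.26), without mouse 1 (-0.27) and without mouse 3 (-0.05). The sum of both was 212 ± 35.8 TPM. Near-identical genes match 43.5% of the longest Eif4a1 transcript and 15.5% of that of Eif4a2. Other genes also share 6.62% of the Eif4a1 and 13.3% of the Eif4a2 exonic bases. The part of these in the difference was not tested.

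Eif4e, the cap-binding protein, had 64.5, 34.7, 50.2 and 44.2 TPM (48.4 ± 12.5). Its relative Eif4e2, a weaker cap binder linked to repression, had 33.0, 16.5, 20.2 and 26.3 TPM (24.0 ± 7.24). Eif4e3 had 7.86, 25.7, 23.9 and 30.2 TPM (21.9 ± 9.75). Eif4e was above both in all mice. The log2 difference from Eif4e2 was 0.99 ± 0.22 but 0.18 ± 0.23 with the longest transcript, which is within its spread and no longer of one sign in all mice. The difference from Eif4e3 was 1.22 ± 1.14, and mouse 1 set much of its size: without that mouse it was 0.66, and it was 2.46 without division by length. The egg-enriched form Eif4e1b had 0 counts in all libraries, and Eif4e3 shares 14.8% of its exonic bases with Gm20696.

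Among the scaffolds that join cap and ribosome, Eif4g2, which lacks the part that binds eIF4E, was the highest, with 78.1, 107.8, 62.7 and 68.8 TPM (79.4 ± 20.004). Eif4g1, the main scaffold, had 24.8, 32.3, 29.1 and 12.9 TPM (24.8 ± 8.50). Eif4g3 had 6.67, 6.08, 4.34 and 5.95 TPM (5.76 ± 0.997). The 3 genes kept this order in every mouse without overlap. The log2 difference was 1.68 ± 0.51 between Eif4g2 and Eif4g1, or 2.92 with the coding length, and 1.87 ± 0.66 between Eif4g1 and Eif4g3. Eif4b, a helper of the helicase, had 43.8, 23.5, 42.4 and 43.6 TPM (38.3 ± 9.89), with mouse 2 alone low. Eif4enif1, which carries eIF4E into the nucleus, had 0.2855, 2.22, 18.8 and 0.729 TPM, with mouse 3 alone high.

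Eif5a (chr11:69916714-69921958) was the most abundant initiation factor transcript and ranked 118 among all genes by median TPM. It had 1146, 578, 1098 and 606 TPM (857 ± 307). Mice 1 and 3 were nearly alike, as were mice 2 and 4, and the pairs were far apart. This is the same division as in the sum of all members, in depth and in the sums of erythroid and osteoblast markers. The osteoblast sums were mostly Bglap, and the osteoblast genes Sp7 and Alpl were higher in mice 1 and 3. The part of these in the division was not tested. Eif5a made up 25.6%, 16.1%, 23.7% and 17.3% of the TPM of all Eif genes. Eif5a2, a paralog of restricted expression, had 1.12, 1.04, 0.230 and 0.0962 TPM (0.621 ± 0.532), from 99, 58, 20 and 5 counts. The ratio of both ran from 558 to 6298 over mice, and the log2 difference of 9.04 ± 0.68 became 10.54 ± 1.33 with a pseudocount of 0.1, since Eif5a2 is near the floor. Dhps and Dohh, the enzymes that make hypusine, a residue found in eIF5A, had 15.02, 16.4, 16.4 and 0 TPM and 16.7, 0, 15.7 and 16.9 TPM, so that each had 1 library at 0 counts.

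Eef1a1 (chr9:78478449-78489151), which brings aminoacyl-tRNA to the ribosome, was the highest member and ranked 22 among all genes. It had 4509, 3519, 4140 and 3308 TPM (3869 ± 554), a CV of 14.3%. Eef1a2, the form of muscle and neurons, had 0 counts in every library. Against a floor of 3 counts per library for Eef1a2, Eef1a1 was at least 55102-fold, 27198-fold, 49695-fold and 23747-fold higher. The fitted log2 difference of 11.91 ± 0.21 depends on the pseudocount and became 15.23 with a pseudocount of 0.1. Near-identical genes match 87.7% of the longest Eef1a1 transcript. The counts assigned to these copies came to 2.07% of those of Eef1a1, but reads that fit both could not be assigned uniquely.

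The exchange factors that recharge eEF1A were lower than Eef1a1 in every mouse. Eef1g (chr19:8967041-8978479) had 486, 215, 535 and 387 TPM (406 ± 141), with mouse 2 low, and 72.0% of its longest transcript has copies elsewhere. Eef1b2 (chr1:63176825-63180486) had 397, 292, 397 and 441 TPM (382 ± 63.3). These neighbours in level overlapped between mice. Eef1d had 77.0, 78.5, 89.7 and 77.4 TPM (80.7 ± 6.04), the smallest CV of the 48 members at a mean of at least 10 TPM, at 7.48%. Eef1e1, which encodes a protein bound to the multi-synthetase complex, had 9.51, 20.1, 14.6 and 40.6 TPM (21.2 ± 13.7), and was the lowest of the 5 expressed genes of the group by a 221-fold difference of medians from Eef1a1.

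Eef2 (chr10:81176631-81182498), the translocase, had 440, 428, 583 and 415 TPM (466 ± 78.3), with mouse 3 alone high. Its kinase Eef2k, which slows elongation by phosphorylating eEF2, had 2.28, 10.4, 3.08 and 3.62 TPM (4.84 ± 3.73), with mouse 2 alone high. The level of the methyltransferase Eef2kmt was 52.2 ± 25.04 TPM, and 23.0% of its exonic bases lie opposite Alg1.

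**Figure D4:**
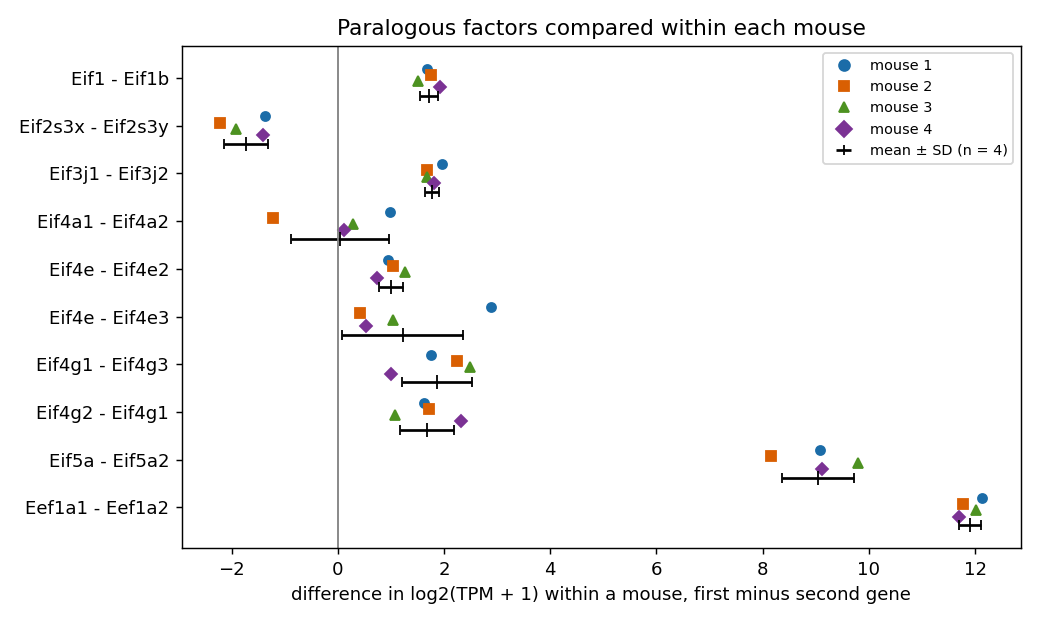
Difference in log2(TPM + 1) between related genes within each mouse (horizontal axis, first minus second gene), with a symbol for each of the 4 mice and mean ± SD below. In 9 of the 10 pairs all mice lie on one side of 0, with Eif2s3x below Eif2s3y, whereas Eif4a1 and Eif4a2 straddle it at 0.04 ± 0.92.

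In 9 of the 10 pairs of related genes, all 4 mice had the same gene higher. For each of these 9 pairs an exact permutation test that flipped the signs of the 4 differences (two-sided) gave p = 0.125, the smallest that 4 mice allow, or 0.139 after Benjamini-Hochberg adjustment over the 10 pairs. For Eif4a1 and Eif4a2 the exact test gave p = 0.875, also 0.875 after adjustment. No pair could therefore pass a threshold of 0.05, and the differences are given with their spread between mice.

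The 17 numbered Eif1ad genes lie together on chromosome 12, from 87494721 to 88329682, and most are near-identical to one another over much of their transcript, so that a read assigned to one may come from another. Only 3 of them had a median above 1 TPM and 9 had 0 counts in all libraries. Eif1ad8 had 788, 560, 0 and 0 counts. Eif1ad11 had 14, 342, 67 and 0 counts, or 1.83, 70.7, 8.91 and 0 TPM. Counts in both were thus absent from 1 or more libraries and plentiful in others. Eif1ad6 had 115 counts, all in mouse 2, and Eif1ad17 had 75, all in mouse 3. Eif1a had 54.0 ± 17.8 TPM and was detected in each mouse. Over all 58 expressed members, 8 share more than 10% of their exonic bases with another gene, 9 have near-identical copies over more than 50% of their longest transcript, and 24 have no such copy.

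In each band of level, the median CV of the members lay below that of protein-coding genes, a difference that was not tested. The median CV of the 48 members with a mean of at least 10 TPM was 27.4%, against 39.9% for 4974 protein-coding genes, which include them. It was 37.3% against 49.0% from 10 to 30 TPM, with 13 members, and 25.5% against 37.3% from 30 to 100 TPM, with 20. From 100 to 300 TPM, 9 members had 25.4% against 26.7%, and from 300 TPM the 6 highest had 16.7% against 19.8%. Of the 58 expressed members, mouse 2 was the lowest mouse in 23 and the highest in 8, and mouse 1 was the highest in 20. The same counts were not made over other expressed genes, and mouse 2 also had the fewest detected genes. Nothing particular to the members is therefore read from these counts.

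**Figure D5:**
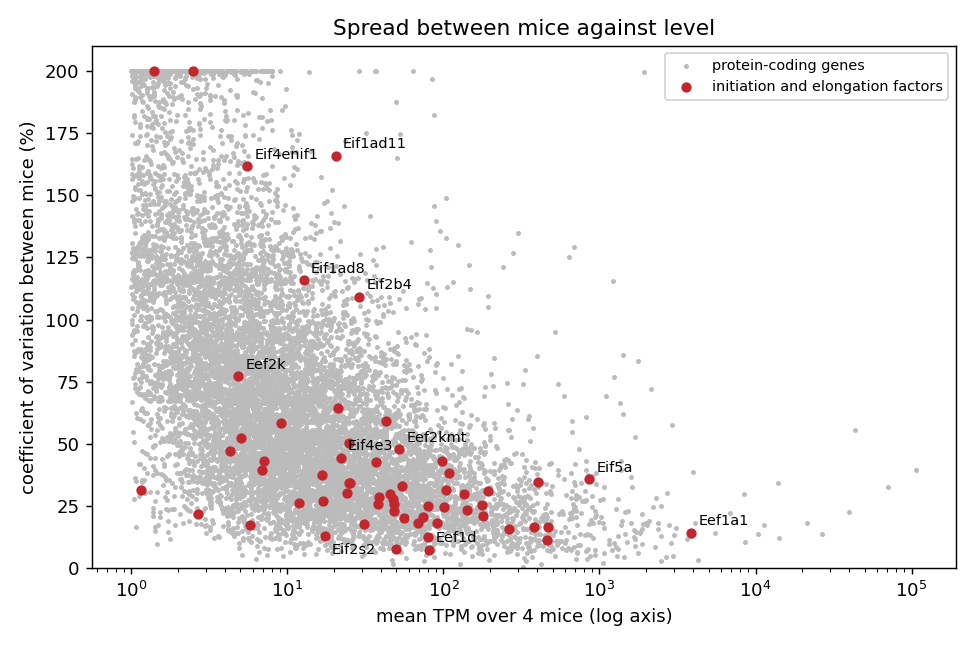
Coefficient of variation between the 4 mice in percent (vertical axis) against mean TPM (horizontal log axis) for protein-coding genes with a mean of at least 1 TPM (grey) and for members (red). At a mean of at least 10 TPM the median is 27.4% for members and 39.9% for protein-coding genes, and Eif1ad11, Eif4enif1, Eif1ad8 and Eif2b4 lie above 100%, as do Eif1ad6 and Eif1ad17 at 200%.

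A RefSeq promoter was found for 43 of the 58 expressed members. The pyrimidine run marked in the sequences above was matched from a C within 2 bases of a start in 9 of the 43 (20.9%). The same match was found in 12.1% of expressed protein-coding genes, 10.6% of all genes and 36.2% of 58 ribosomal protein genes. The 95% Wilson interval of the members' share, 11.4% to 35.2%, included that of expressed genes. This width was kept after 4 widths had been looked at, and no excess is read from it. Exactly at the start the shares were 4.65% of members and 3.08% of expressed protein-coding genes, within 5 bases 25.6% and 23.8%, and within 10 bases 32.6% and 37.1%. At the widest setting the members thus lay below expressed genes, whereas ribosomal protein genes had 22.4%, 48.3% and 65.5% at these widths. Besides Eef1a1, Eif2s3x and Eif2s3y, the 9 members were Eif1ad, Eif2b5, Eif3b, Eif3f, Eif3l and Eif4g1. In Eef1a1, Eif2s3x, Eif2b5, Eif3f and Eif3l the base before the match is C or T, so that the pyrimidine stretch begins further upstream. The members with the run had a median of 28.6 TPM and those without it 47.8 TPM.

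A small nucleolar RNA, which guides the modification of ribosomal or other RNA, is annotated within the gene body and on the same strand in 8 of the 58 expressed members (13.8%), against 1.89% of expressed protein-coding genes. These were Eef1b2, Eef2, Eif3a, Eif4a1, Eif4a2, Eif4g1, Eif4g2 and Eif5, whose medians ran from 25.1 to 434 TPM. The 2 shares are not matched for level: expressed members had a median of 46.3 TPM and expressed protein-coding genes 9.86 TPM. Both features were looked for after the levels were known and are descriptions. No test was made beyond the Wilson interval of the run's share, which treats genes as independent.

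The pathway around the factors was followed with 42 genes, of which Ddit3 was not analysed here. Of the 41 measured, 35 had a median above 1 TPM and 25 exceeded it in every mouse. The translational repressor Eif4ebp1, which holds eIF4E away from the scaffold, had 245, 102, 219 and 104 TPM (168 ± 75.3). It was higher in mice 1 and 3 than in mice 2 and 4, as Eif5a was. The share of all genes divided in this way was not computed. Eif4ebp2 had 6.06, 2.16, 11.6 and 12.9 TPM (8.19 ± 5.003), without that division, and Eif4ebp3 had 0 counts. Atf4, the transcription factor made when eIF2 is phosphorylated, had 239, 205, 232 and 181 TPM (214 ± 26.6). Ppp1r15a, which recruits the phosphatase of eIF2, had 123, 55.4, 122 and 34.04 TPM (83.5 ± 45.6), again higher in mice 1 and 3. Of the 4 kinases of eIF2, Eif2ak1 had the highest median with 19.8 TPM, followed by Eif2ak3 with 7.15 TPM, Eif2ak2 with 2.67 TPM and Eif2ak4 with 0.815 TPM. The poly(A)-binding protein Pabpc1, which touches the eIF4G scaffold, had 67.9, 77.6, 71.0 and 86.0 TPM (75.6 ± 8.02), lower in mice 1 and 3. All 5 mTOR genes had a median above 1 TPM and 3 exceeded it in every mouse. Of the genes of termination and recycling, 5 of 6 passed both rules, and of the eEF1A methyltransferases 4 of 5 passed the first and 3 the second. Of the 6 enzymes that make diphthamide on eEF2, 5 had a median above 1 TPM and 2 exceeded it in every mouse.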

How the data were processed

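RNA-seq was measured in 4 libraries, each of 100 sorted MSCs. According to the methods, the authors mapped the paired reads with STAR 2.7.10 on GRCm39, took uniquely mapped pairs per exon with featureCounts of Subread 1.6.5 and no strand option, and deposited raw counts per gene. Genes, lists and pairs were chosen with earlier results of these data known.

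From the counts, TPM was computed with Python 3.11.15, pandas 2.3.3 and numpy 2.4.6, using the union of exons of GENCODE M21 on GRCm38, another build than that of the counts. The 4855 genes without a length there, with 1.85% to 3.86% of the counts, were left out. No coordinates were converted. A gene was called expressed at a median TPM above 1, the cutoff the study uses. Related genes were compared within mice in log2(TPM + 1) with an exact permutation of signs (two-sided), tested on simulated data together with the TPM code. BLAST 2.17.0 was used to find near-identical copies at 95% identity over at least 100 bases of transcript. Sequences are from RefSeq on GRCm38.

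Depth was 22738604 to 43545349 counts, so that 3 counts stand for 0.0689 to 0.132 of 1000000 counts. Such floors and counting errors cover counting only, since PCR copies are not independent molecules.

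Members given with a value for every mouse were the 6 highest, the 10 pairs, the highest and lowest subunits of eIF2, eIF2B, eIF3 and eEF1, and members with a mean of at least 1 TPM where 1 mouse stood apart or a library had 0 counts. Other genes of these groups are named with their values as examples. Alternatives were other gene lengths, no length, TMM factors (edgeR 4.0.16), DESeq2 1.42.0 size factors, another denominator, pseudocount, cutoffs and filters, and leaving out each mouse. The other widths of the start window were added after the data were seen.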

Additional observations from a re-analysis of the deposited data

Results flagged for a closer look

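For 81 values, 1 mouse standing apart from the other 3 was looked for by Dixon's ratio, the gap to the nearest mouse divided by the whole range. The 95% critical value was exceeded by 9. About 4.05 would exceed it if the values were independent and normally distributed. Because all values come from the same 4 libraries, they are not independent.

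Mouse 3 stood high in Eef2 (ratio 0.853), in the summed eEF2 group that Eef2 dominates (0.861), and in Eef1d (0.882), where the whole range was only 77.0 to 89.7 TPM. It was also the high mouse in Eif4enif1 (0.896), with 2072 counts against 32, 157 and 48, and in Eif1ad17 (1), with 75 counts against 0 in the others. Mouse 2 stood high in Eef2k (0.835), with 10.4 TPM against at most 3.62, in Eif1ad11 (0.874), with 342 counts against at most 67, and in Eif1ad6 (1), with 115 counts against 0. Mouse 2 stood low in Eif4b (0.931), with 23.5 TPM against at least 42.4. Mouse 2 had the lowest number of detected genes, 16109 against 18683 to 18907, and a cause of these values was not tested.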

How the results depend on the processing

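Of the values recomputed under an alternative, 141 kept their direction (for pairs) or stayed within the spread between mice (for counts of members, within 1.5 times, and for the median CV, within 10% of its value, a limit chosen while the values were computed), 15 moved and 5 reversed. All 5 reversals were in Eif4a1 against Eif4a2, whose log2 difference of 0.04 became -0.48 with the longest transcript, -0.25 with the coding length and -0.26 without length, and ran from -0.27 to 0.46 when a mouse was left out. In the other 9 pairs the mean kept its sign under all 8 alternatives, but Eif4e against Eif4e2 fell to 0.18 ± 0.23 with the longest transcript, within its spread. The summed TPM of members became 11430 without length (per 1000000 counts) and 15363 with the smaller denominator, that of Eef genes 3685 with the coding length and 8702 with the smaller denominator, and that of Eif genes 4719.7, 6005, 5550.45 and 6661 with the longest transcript, the coding length, no length and the smaller denominator. The eIF3 spread became 1.26 with the coding length and 0.70 without length. The median CV was 31.3% without a filter on low values and 23.6% at a mean of at least 50 TPM, where protein-coding genes had 85.8% and 28.7%, and ran from 23.8% to 29.5% when a mouse was left out. The number of expressed members lay between 52, at a cutoff of 5 TPM, and 60, by the mean over mice. No paired analysis between groups of samples was possible because all libraries form 1 group. The share of members with a pyrimidine run, 20.9% within 2 bases of the start, was 4.65% exactly at it, 25.6% within 5 bases and 32.6% within 10, and was taken as unmoved inside its 95% Wilson interval.

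With 4 mice no exact test can pass 0.05. Gene lengths come from another build than the counts, and no protein or other RNA assay stands beside the transcript levels. Members of few counts, such as Eif2b4 in mouse 2 with 3 and Eif5a2 in mouse 4 with 5, are near the floor, and the part of depth in other levels was not tested.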
